A study of Mus musculus with 20 samples.

Results

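The mTOR pathway components examined here are 9 mouse genes: Mtor, Rptor, Rictor, Deptor, Tsc1, Tsc2, Rheb, Eif4ebp1 and Rps6kb1. They were selected by name, through the gene identifiers of the expression matrix, and all 9 of them were found among its 48440 genes. The cells were 3T3-L1 adipocytes, a mouse fibroblast-derived line (strain given as Swiss mouse) that turns into fat cells under a hormone cocktail. All 20 libraries came from cells differentiated with troglitazone (10 µM), insulin (5 µg/ml), the phosphodiesterase inhibitor isobutyl methylxanthine (0.5 mM) and dexamethasone (1 µM), kept on insulin alone from day 4 and returned to growth medium from day 6. In the Foxk1 set, 3 libraries labelled Foxk1 overexpression were set against 3 empty vector controls, and 3 Foxk1 knockdown libraries against 3 scrambled shRNA controls. The Foxk2 set had the same 4 arms for Foxk2 with 2 libraries each. The labels give neither the promoter that drove the ectopic gene nor the shRNA target, and they do not say whether the replicates were separate cultures, so the p-values below measure only the spread between these libraries, which may be technical.

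Foxk1 and Foxk2 are forkhead transcription factors. mTOR is a kinase that works in 2 complexes. The first, mTORC1, is built around the scaffold Rptor and promotes protein and lipid synthesis by phosphorylating the translation repressor 4E-BP1 (Eif4ebp1) and the S6 kinase (Rps6kb1). The second, mTORC2, is built around Rictor and phosphorylates AKT. Deptor is a subunit of both complexes that inhibits mTOR. The Tsc1 and Tsc2 proteins form a complex that switches off the small GTPase Rheb, the direct activator of mTORC1. In fat cells, insulin acts on this pathway through AKT, which inhibits Tsc2. Transcript levels say nothing of phosphorylation, through which most of this control runs.

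Promoter sequence from RefSeq (GRCm38.p6, the assembly also called mm10) was matched to 7 of the 9 genes, and Deptor and Eif4ebp1 are named only. The windows of 3 genes are printed because these genes gave the results described below: Mtor for the kinase itself, Rictor for its change in the Foxk1 knockdown, and Tsc2 because it passed the test in each of the 4 comparisons. Each is written 5′ to 3′ on the gene's strand, upstream of the transcription start and clear of annotated exons, and capitals mark matches to 3 promoter motifs: the GC box (GGGCGG, or CCGCCC on the other strand), the CCAAT box (CCAAT, or ATTGG) and the ETS core (CCGGAAG). Mtor is shown at chr4:148448332-148448581 (plus strand), Rictor at chr15:6708131-6708378 (plus strand) and Tsc2 at chr17:24632631-24632679 (minus strand).
Mtor: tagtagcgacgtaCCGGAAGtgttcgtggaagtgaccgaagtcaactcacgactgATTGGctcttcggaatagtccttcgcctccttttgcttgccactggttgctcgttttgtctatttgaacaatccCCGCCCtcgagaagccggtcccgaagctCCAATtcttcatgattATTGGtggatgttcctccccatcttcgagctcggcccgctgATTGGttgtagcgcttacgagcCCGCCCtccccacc
Rictor: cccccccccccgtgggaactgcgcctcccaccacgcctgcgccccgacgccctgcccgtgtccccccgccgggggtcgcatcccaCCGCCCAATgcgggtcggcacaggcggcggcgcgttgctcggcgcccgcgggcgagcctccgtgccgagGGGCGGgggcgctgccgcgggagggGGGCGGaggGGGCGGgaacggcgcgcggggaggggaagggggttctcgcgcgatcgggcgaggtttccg
Tsc2: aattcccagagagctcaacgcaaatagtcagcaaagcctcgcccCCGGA
The Tsc2 stretch is the whole 49-base gap between Tsc2 and the oppositely transcribed gene Nthl1, and its capitals are the start of an ETS core whose last letters fall in the exon. In Rictor, 1 GC box and the CCAAT box overlap, and the Rictor stretch was 81.5% G or C, against a median of 52.4% over the 250-base windows of 32851 promoters. Of the 7 matched windows of 250 bases, 3 held a GC box, 2 a CCAAT box and 2 an ETS core, searched on both strands. The same motifs were found in 32.7%, 33.8% and 6.91% of all promoter windows. The forkhead motif GTAAACA was in 0 of the 7 windows and in 3.17% of all. The ATF4 composite site TGATGCAA was in 0 of the 7 and 0.791% of all, and the E-box CACGTG was in 1 of the 7, that of Rheb, and 6.02% of all. A match describes letters only.

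Levels are given as RPKM, read counts scaled to a gene's exon length and to the library's assigned reads. Depth was 16739763 to 20772823 assigned reads in the Foxk1 set and 31378224 to 36157008 in the Foxk2 set, and each component had between 679 and 12145 reads in every library. The 2 sets differed across the transcriptome: the first principal component, 79.5% of the variance, separated them, so each manipulation was tested against the controls of its own set, and set and depth cannot be told apart. Foxk1 itself was 7.98, 8.18 and 8.80 RPKM in the knockdown controls and 2.95, 3.35 and 3.46 RPKM in the Foxk1 knockdown. In the libraries labelled Foxk1 overexpression it was 6.06, 6.08 and 6.16 RPKM against 7.11, 7.48 and 8.04 RPKM in the empty vector controls. This fall in the measured RPKM of the targeted gene (log2 fold change -0.28, limma adjusted p = 0.000515) goes against the label. RPKM is given per mouse gene, so endogenous and ectopic Foxk1 transcript cannot be told apart. Whether an ectopic transcript was counted is not known. Every direction given below for these libraries is that of the libraries labelled Foxk1 overexpression. Foxk2 was 13.3 and 13.4 RPKM in its overexpression controls and 19.9 and 20 RPKM in the Foxk2 overexpression, and it was 12.7 and 13.1 RPKM in its knockdown controls and 3.25 and 3.29 RPKM in the Foxk2 knockdown. The other factor moved in all 4 comparisons. Foxk1 was 11.6 ± 0.0573 RPKM in the Foxk2 overexpression controls and 7.14 ± 0.227 RPKM in the overexpression (SD, n = 2 each; log2 fold change -0.66, limma adjusted p = 8.96e-07), and it rose by 0.30 in the Foxk2 knockdown (adjusted p = 0.00271). Foxk2 rose by 0.29 in the libraries labelled Foxk1 overexpression (adjusted p = 2.68e-05), where Foxk1 was lower. It fell by 0.19 on the log2 scale in the Foxk1 knockdown (log2 fold change -0.19, adjusted p = 0.00156). This last call was lost when only the groups compared were fitted (limma adjusted p = 0.0557). The rise of Foxk1 in the Foxk2 knockdown was lost after removal of the trend of fold change on gene length and GC content (0.11, limma adjusted p = 0.137).

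Changes in the mTOR components were small and mixed in direction. Deptor, the mTOR inhibitor, rose in the libraries labelled Foxk1 overexpression and in the Foxk2 overexpression, by 1.31-fold and 1.32-fold, and fell in the Foxk2 knockdown to 0.739 of its control. Tsc2 fell in both overexpressions and rose in both knockdowns, by 0.16 to 0.24 on the log2 scale. Rictor rose 1.33-fold in the Foxk1 knockdown, and Eif4ebp1 fell in the Foxk1 knockdown and the Foxk2 overexpression and rose in the Foxk2 knockdown. Rptor passed limma's test in 0 of the 4 comparisons, at an unadjusted p under 0.05 in 0, and in 0 with voom on recovered whole reads. It did gain calls under quantile normalization and after removal of the trend on gene length and GC content, given below.

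The cells carried the markers of fat cells: all 10 adipocyte markers (Adipoq, Fabp4, Pparg and others) were expressed in every library, with a summed level of 5754 to 12308 RPKM. Markers of fibroblasts and preadipocytes moved with each manipulation. Their summed level, over 10 genes, was 637 to 775 RPKM in the Foxk1 set's empty vector controls and 250 to 262 RPKM in the libraries labelled Foxk1 overexpression, and 515 to 526 RPKM in the Foxk2 empty vector controls and 231 to 243 RPKM in the Foxk2 overexpression. It was 1183 to 1274 RPKM in the Foxk1 scrambled controls and 2138 to 2244 RPKM in the knockdown, and 349 to 351 RPKM in the Foxk2 scrambled controls and 977 to 1015 RPKM in the knockdown. Of the 9 such markers tested, 8 fell in each overexpression and 9 rose in each knockdown, and Cd34 was under 0.5 RPKM in all libraries. Of all genes, 23.8% and 22% fell in the Foxk1-labelled and Foxk2 overexpressions, and 20.4% and 18% rose in the Foxk1 and Foxk2 knockdowns. Between controls, 7 markers were higher and 2 lower in the scrambled controls of the Foxk1 set (28% and 16.8% of all genes). In the Foxk2 set 9 were lower there (8.05% of all genes). The summed adipocyte level was also lower under each manipulation than in its controls, at 7525 to 7628 against 11808 to 12308 RPKM in the libraries labelled Foxk1 overexpression and 5754 to 5781 against 10403 to 10586 RPKM in the Foxk2 overexpression. Of the 10 adipocyte markers, 2 rose and 6 fell in the former and 2 rose and 7 fell in the latter, 0 rose and 7 fell in the Foxk1 knockdown, and 1 rose and 4 fell in the Foxk2 knockdown. In the same order, 24.1%, 23%, 20.4% and 18% of all genes rose and 23.8%, 22%, 15.5% and 15.7% fell. In bulk RNA, fewer cells of a type and less RNA per cell cannot be told apart, and the part of these shifts in the results on Tsc2, Deptor and the other components was not tested. Of the 5 macrophage markers, Ptprc, Adgre1 and Itgam were at 0.0181 RPKM or less in every library, while Cd68 was 0.698 to 3.42 RPKM and Csf1r 0.0191 to 1.87 RPKM. Of these 2, which were the ones tested, 1 passed as higher in the libraries labelled Foxk1 overexpression and 1 in the Foxk2 knockdown (24.1% and 18% of all genes were higher), and their part in the results was not tested. All 4 endothelial markers were under 0.5 RPKM in every library.

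A component was called where limma on log2(RPKM + 0.5) gave an adjusted p under 0.05 over the 15981 genes tested, and fold changes are on that scale. All 9 components passed the filter on low values. In the libraries labelled Foxk1 overexpression, 2 components rose (Deptor, Tsc1), 2 fell (Tsc2, Rps6kb1) and 5 did not pass, where 47.8% of all tested genes were called (24.1% higher, 23.8% lower). In the Foxk1 knockdown 2 rose (Rictor, Tsc2), 2 fell (Eif4ebp1, Mtor) and 5 did not pass, against 35.9% of all genes (20.4% higher, 15.5% lower). In the Foxk2 overexpression 3 rose (Deptor, Mtor, Rheb), 2 fell (Eif4ebp1, Tsc2) and 4 did not pass, against 45% (23% higher, 22% lower). In the Foxk2 knockdown 2 rose (Tsc2, Eif4ebp1), 3 fell (Deptor, Mtor, Rheb) and 4 did not pass, against 33.7% (18% higher, 15.7% lower). With 4 or 5 of 9 called where 33.7% to 47.8% of all genes were, the number of calls is not a result about the components. The median log2 fold change of the 9 was 0.0086, -0.0018, 0.14 and -0.02 in these 4 comparisons, and the median over all genes was within 0.02 of zero in each. The ranges of the libraries did not overlap for 6, 6, 8 and 9 of the 9 components, where 52.3%, 44.2%, 70.3% and 67.2% of all genes had ranges apart.

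**Figure D1:**
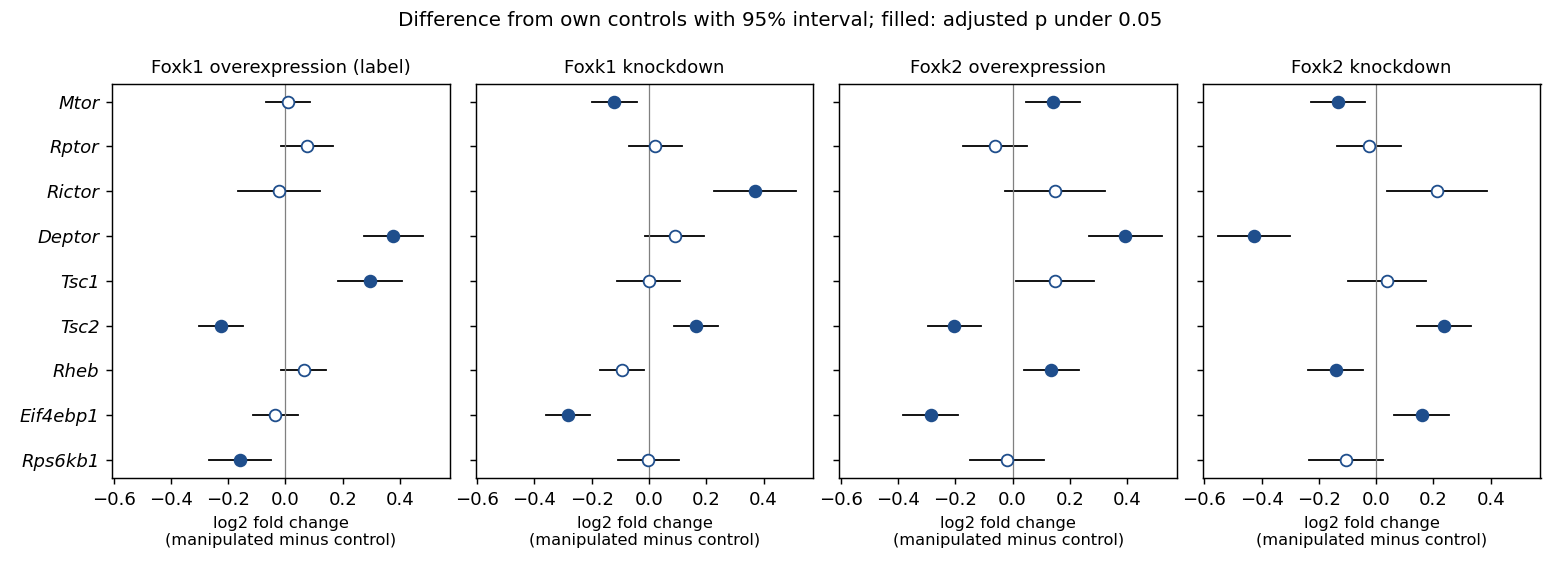
Log2 fold change of each component (manipulated minus its own control, on log2(RPKM + 0.5)) in the 4 comparisons, with 95% intervals from limma. Filled points have an adjusted p under 0.05: Tsc2 is filled in all 4 panels and Rptor in 0.

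Mtor, the kinase, was close to level in the libraries labelled Foxk1 overexpression, at 7.40, 7.73 and 7.75 RPKM against 7.5, 7.54 and 7.68 RPKM in the controls, with overlapping ranges. After removal of the trend of fold change on gene length and GC content a difference of 0.08 passed there (adjusted p = 0.0328). Under Foxk1 knockdown it was 6.22, 6.30 and 6.35 RPKM against 6.54, 6.85 and 7.29 RPKM, so every knockdown library lay under every control, and it fell by 0.12 on the log2 scale (SE 0.0365, adjusted p = 0.0166). In the Foxk2 set it was 12.2 and 12.6 RPKM in the overexpression against 10.9 and 11.4 RPKM, and it rose by 0.14 (SE 0.0447, adjusted p = 0.0169). Under Foxk2 knockdown it was 11.3 and 11.6 RPKM against 12.5 and 12.7 RPKM, and it fell by 0.13 (SE 0.0447, adjusted p = 0.0305). The groups did not overlap in any of these 3 comparisons, but the calls were thin. The Foxk1 knockdown call was lost without control replicate 1 (-0.08, adjusted p = 0.0877) or knockdown replicate 2 (adjusted p = 0.0527), the Foxk2 overexpression call without control replicate 1 (adjusted p = 0.138) or overexpression replicate 2 (adjusted p = 0.113), and the Foxk2 knockdown call without any 1 of its 4 libraries (adjusted p from 0.0623 to 0.161). The first 2 were also lost when only the groups compared were fitted (adjusted p = 0.11 and 0.0753), while removing the length and GC trend moved the Foxk2 values to 0.30 and -0.31.

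Rptor, the scaffold of mTORC1, was 5.64, 5.72 and 5.80 RPKM in the libraries labelled Foxk1 overexpression and 5.32, 5.41 and 5.47 RPKM in the controls. The ranges were apart, and the difference of 0.08 had a 95% interval from -0.02 to 0.17 (adjusted p = 0.172). In the Foxk1 knockdown Rptor was 5.07, 5.12 and 5.14 RPKM, inside the control range of 4.72 to 5.51 RPKM. Under Foxk2 overexpression it was 7.52 and 7.69 RPKM against 7.73 and 8.18 RPKM (log2 difference -0.06, interval -0.17 to 0.05), and in the Foxk2 knockdown 7.21 and 7.24 RPKM against 7.32 and 7.39 RPKM (log2 difference -0.02, interval -0.14 to 0.09). These differences did not pass the test. Under quantile normalization Rptor passed in the libraries labelled Foxk1 overexpression (0.12, adjusted p = 0.0364). With the length and GC trend removed Rptor did pass in 3 comparisons: it was 0.16 higher in the libraries labelled Foxk1 overexpression (adjusted p = 0.00167), 0.16 higher in the Foxk2 overexpression, with its sign turned (adjusted p = 0.00787), and 0.27 lower in the Foxk2 knockdown (log2 difference -0.27, adjusted p = 0.000192).

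Rictor, the scaffold of mTORC2, was 5.58, 5.94 and 5.96 RPKM in the Foxk1 knockdown against 4.31, 4.33 and 4.55 RPKM in the scrambled controls. All 3 knockdown libraries were above all 3 controls, by 0.37 on the log2 scale (SE 0.0668, adjusted p = 0.000446), and this rise passed the test in all 12 alternatives and with each library left out. The empty vector controls of the same set, at 5.18, 5.46 and 5.46 RPKM, lay between these groups. The libraries labelled Foxk1 overexpression spread from 4.66 to 5.92 RPKM around those controls, a difference of -0.02 (interval -0.17 to 0.12). In the Foxk2 set Rictor was 6.01 and 6.16 RPKM in the overexpression against 5.13 and 5.75 RPKM, and 6.07 and 6.62 RPKM in the knockdown against 5.19 and 5.62 RPKM. Neither difference passed the test (log2 differences 0.15 and 0.21, adjusted p = 0.16 and 0.0571). The second did pass on whole reads recovered from the RPKM values (adjusted p = 0.0122) and with a mean of 1 RPKM or more as the filter (adjusted p = 0.0475).
The log2 ratio of Rptor to Rictor, both per length, was -0.23, -0.22 and -0.12 in the Foxk1 knockdown and 0.12, 0.18 and 0.27 in its controls. The difference was -0.38 (exact permutation test, two-sided p = 0.1, the smallest 3 against 3 can give; adjusted over 16 ratio tests 0.32). In the libraries labelled Foxk1 overexpression, the Foxk2 overexpression and the Foxk2 knockdown it was 0.11, -0.23 and -0.26.

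Deptor was 23.3, 23.9 and 25.0 RPKM in the libraries labelled Foxk1 overexpression and 17.6, 18.2 and 19.6 RPKM in the empty vector controls. The lowest of the former was above the highest of the latter, and the log2 fold change was 0.38 (SE 0.0484, adjusted p = 1.06e-05). In the Foxk2 overexpression it was 22.8 and 24.6 RPKM against 17.1 and 18.7 RPKM, a rise of 0.39 (SE 0.0593, adjusted p = 5.25e-05). In the Foxk2 knockdown it was 16.7 and 17.1 RPKM against 22.7 and 23.1 RPKM, a fall of 0.43 on the log2 scale (log2 fold change -0.43, SE 0.0593, adjusted p = 4.35e-05). These 3 changes passed the test in all 12 alternatives and with each library left out. After Foxk1 knockdown Deptor was 13.7, 13.8 and 15.1 RPKM against 13.1, 13.2 and 13.6 RPKM, and the difference of 0.09 (interval -0.01 to 0.19) did not pass the test. The knockdown effects of Foxk1 and Foxk2 on Deptor differed by 0.52 (Foxk1 minus Foxk2, SE 0.0765, adjusted p = 0.000369). Deptor shares 303 exon bases with the oppositely oriented gene Gm9920, and the strand used in counting is not given in the sources used here. Gm9920 rose by 0.49 in the libraries labelled Foxk1 overexpression (adjusted p = 0.000794) and did not pass the test in the other 3 comparisons, and its part in the Deptor result was not tested.

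Tsc1 was 4.22, 4.62 and 4.85 RPKM in the libraries labelled Foxk1 overexpression against 3.46, 3.67 and 3.73 RPKM, and it rose by 0.30 (SE 0.0521, adjusted p = 0.000231) with no overlap between the groups. With Foxk2 overexpressed it was 5.02 and 5.46 RPKM against 4.55 and 4.81 RPKM, a difference of 0.15 (interval 0.01 to 0.28) that did not pass the test (limma adjusted p = 0.0749). That difference did pass with median-ratio scaling (adjusted p = 0.0312), on whole reads (adjusted p = 0.022) and with the length and GC trend removed (adjusted p = 0.00211). In the Foxk1 knockdown its range, 3.43 to 3.84 RPKM, enclosed that of the controls, 3.58 to 3.61 RPKM. Under Foxk2 knockdown it was 4.65 and 4.73 RPKM against 4.47 and 4.64 RPKM, a difference of 0.04 (interval -0.10 to 0.17).

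Tsc2 moved in the opposite direction under overexpression. It was 9.56, 9.81 and 10.0 RPKM in the libraries labelled Foxk1 overexpression against 11.2, 11.5 and 11.9 RPKM (log2 fold change -0.22, SE 0.0358, adjusted p = 8.91e-05). In the Foxk2 overexpression it was 13.4 and 13.5 RPKM against 15.4 and 15.8 RPKM (log2 fold change -0.20, SE 0.0438, adjusted p = 0.00127). Every overexpression library was below every one of its controls. Under Foxk1 knockdown it was 14.1, 14.1 and 15.1 RPKM against 12.5, 12.7 and 13.3 RPKM (log2 fold change 0.16, SE 0.0358, adjusted p = 0.00211). In the Foxk2 knockdown it was 17.0 and 18.0 RPKM against 14.5 and 15 RPKM (log2 fold change 0.24, SE 0.0438, adjusted p = 0.00056). All knockdown libraries were above their controls. Leaving out any library kept these 4 calls. With the length and GC trend removed the Foxk2 values shrank to -0.05 (adjusted p = 0.378) and 0.10 (adjusted p = 0.123). In the GENCODE M21 annotation Tsc2 also shares 693 exon bases with Pkd1 on the opposite strand, 7.2% of its exon bases. Reads there cannot be told apart without strand. The matrix used an older version of Tsc2, for which the shortest length giving whole reads was 6018 bases, against 9620 in M21. The overlap of the exons that were counted is therefore not known. Pkd1 had log2 fold changes of -0.34, 0.14, -0.55 and 0.39 in the 4 comparisons in the order above (Foxk1 label, Foxk1 knockdown, Foxk2 overexpression, Foxk2 knockdown), of which the second did not pass the test. Its part in the Tsc2 result was not tested. Nthl1, across the 49-base gap, passed the test only in the Foxk2 overexpression among the 4 (log2 fold change -0.36, adjusted p = 0.0077).
The ratio of Tsc1 to Tsc2, both per length, was 0.442, 0.459 and 0.495 in the libraries labelled Foxk1 overexpression and 0.300, 0.309 and 0.33 in the controls. Its log2 difference was 0.57 (exact permutation p = 0.1, the smallest possible; adjusted 0.32). In the Foxk1 knockdown the ratio was 0.243, 0.250 and 0.255 against 0.273, 0.282 and 0.288 (log2 difference -0.17, exact permutation p = 0.1; adjusted 0.32). The differences were 0.37 in the Foxk2 overexpression and -0.20 in the Foxk2 knockdown, where 2 libraries against 2 cannot give an exact p under 0.33.

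Rheb, the GTPase under the control of the Tsc complex, was 25.4, 26.3 and 27.3 RPKM in the libraries labelled Foxk1 overexpression against 25.0, 25.2 and 25.3 RPKM (log2 difference 0.06, adjusted p = 0.17). After Foxk1 knockdown it was 22.2, 22.8 and 24.1 RPKM against 24.5, 24.5 and 24.8 RPKM (log2 difference -0.09, adjusted p = 0.0575). Ranges were apart in both, without a call. After removal of the trend on length and GC content both passed (0.14, adjusted p = 0.00373, and -0.20, adjusted p = 0.000465), and the knockdown difference also did under median-ratio scaling (-0.13, adjusted p = 0.00911) or without knockdown replicate 2 (adjusted p = 0.0185). Under Foxk2 overexpression it was 19.6 and 20.6 RPKM against 17.8 and 18.7 RPKM, a rise of 0.14 (SE 0.0449, adjusted p = 0.0223), and in the Foxk2 knockdown 18.2 and 18.8 RPKM against 19.9 and 21 RPKM, a fall of 0.14 on the log2 scale (log2 fold change -0.14, SE 0.0449, adjusted p = 0.0241). Both Foxk2 calls were lost without replicate 2 of either group compared. The difference was then 0.10 each time in the overexpression, and -0.10 and -0.12 in the knockdown. Both were also lost when only the groups compared (limma adjusted p = 0.111 and 0.096) or those of 1 factor (0.0602 and 0.0667) were fitted. The overexpression call was lost after removal of the length and GC trend as well (0.11, limma adjusted p = 0.0573).

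Eif4ebp1, which encodes 4E-BP1, had the highest RPKM of the 9 components in every library, from 108 to 266 RPKM, while the other 8 lay between 3.43 and 27.3 RPKM. In the Foxk1 knockdown it was 204, 210 and 214 RPKM against 243, 256 and 266 RPKM in the scrambled controls, and it fell by 0.28 on the log2 scale (SE 0.0364, adjusted p = 1.8e-05). In the libraries labelled Foxk1 overexpression it was 143, 150 and 155 RPKM against 149, 154 and 156 RPKM, a difference of -0.04 (interval -0.11 to 0.04) that became -0.12 and passed under quantile normalization (adjusted p = 0.0157). In the Foxk2 overexpression it was 108 and 110 RPKM against 131 and 135 RPKM, and it fell by 0.29 (SE 0.0446, adjusted p = 7.33e-05). Under Foxk2 knockdown it was 121 and 125 RPKM against 109 and 111 RPKM, and it rose by 0.16 (SE 0.0446, adjusted p = 0.0115). The groups were apart in the 3 comparisons that passed. The Foxk2 knockdown call was lost without control replicate 2 (adjusted p = 0.082) or knockdown replicate 1 (adjusted p = 0.0835). The log2 ratio of Eif4ebp1 to Eif4ebp2, which encodes the related repressor 4E-BP2, differed by 0.14 (exact permutation p = 0.1; adjusted 0.32), -0.07, -0.10 and 0.14 in the libraries labelled Foxk1 overexpression, the Foxk1 knockdown, the Foxk2 overexpression and the Foxk2 knockdown. The change of Eif4ebp1 differed between the Foxk1 and Foxk2 sets (Foxk1 minus Foxk2). The difference was 0.25 in the overexpressions (SE 0.0576, limma adjusted p = 0.00492) and -0.44 in the knockdowns (SE 0.0576, limma adjusted p = 0.000133). The first compares labels, since the measured Foxk1 RPKM was lower in the libraries labelled Foxk1 overexpression than in their controls.

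Rps6kb1, which encodes S6 kinase 1, was 8.44, 8.52 and 9.07 RPKM in the libraries labelled Foxk1 overexpression against 9.45, 9.83 and 9.94 RPKM, all below the controls, and it fell by 0.16 on the log2 scale (SE 0.05, adjusted p = 0.0158). The call was lost without control replicate 2 (adjusted p = 0.0523), overexpression replicate 2 (adjusted p = 0.0603) or overexpression replicate 3 (adjusted p = 0.0522), and after removal of the trend on length and GC content (adjusted p = 0.11). It had the narrowest range of the 9, 7.99 to 9.94 RPKM over all 20 libraries. The differences in the Foxk1 knockdown, the Foxk2 overexpression and the Foxk2 knockdown were -0.0034 (interval -0.11 to 0.10), -0.02 (interval -0.15 to 0.11) and -0.11 (interval -0.24 to 0.03). After removal of the length and GC trend the first was -0.12 (adjusted p = 0.0208) and the last -0.16 (adjusted p = 0.0118), and both passed. The log2 ratio of Rps6kb1 to Rps6kb2, which encodes S6 kinase 2, differed by -0.32 in the libraries labelled Foxk1 overexpression (exact permutation p = 0.1; adjusted 0.32) and by 0.02, -0.17 and -0.03 in the other 3 comparisons. It shares 155 exon bases with Rnft1 on the opposite strand, which had a log2 fold change of -0.21 in the libraries labelled Foxk1 overexpression (adjusted p = 0.001).

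Levels across the 2 sets carry the difference between the sets, in which depth cannot be told apart, and are given as a description. Over all 8 groups, Mtor was lowest in the Foxk1 knockdown and highest in the Foxk2 knockdown controls, and its 2 sets did not overlap (6.22 to 7.75 against 10.9 to 12.7 RPKM). The mean of the Foxk2 set was 1.68 times that of the Foxk1 set. Rptor also had sets apart, with 4.72 to 5.80 against 7.21 to 8.18 RPKM. Rheb and Eif4ebp1 were apart the other way, with 22.2 to 27.3 against 17.8 to 21 RPKM for Rheb and 143 to 266 against 108 to 135 RPKM for Eif4ebp1. Rictor, Deptor, Tsc1, Tsc2 and Rps6kb1 overlapped between sets. For Deptor the order of group means ran from the libraries labelled Foxk1 overexpression (24.1 RPKM) through the Foxk2 overexpression (23.7 RPKM) and the Foxk2 knockdown controls (22.9 RPKM), whose ranges overlapped from each to the next, down to the Foxk1 knockdown (14.2 RPKM) and its controls (13.3 RPKM). For Rps6kb1, from the second group in order to the last, each group's range overlapped that of the next.

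**Figure D2:**
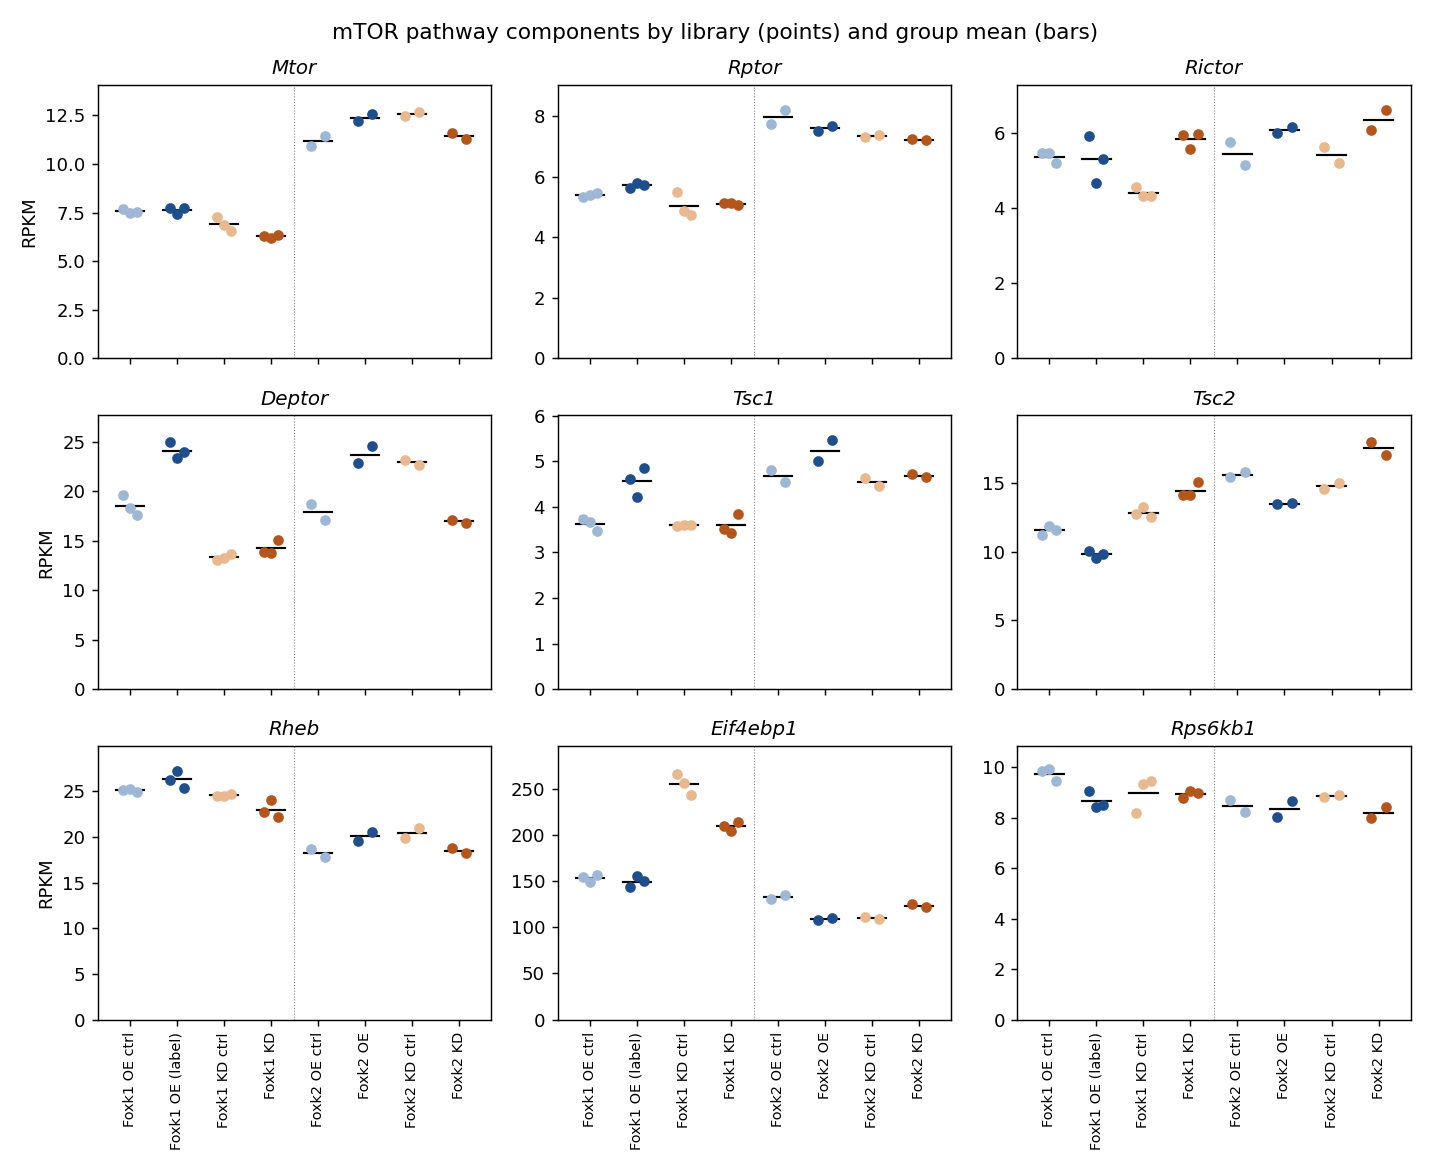
RPKM of each component in every library (points) with group means (bars), in 8 groups: overexpression (OE) and knockdown (KD) with their controls (ctrl), the Foxk1 set left of the dotted line and the Foxk2 set right of it. Mtor and Rptor are higher in the Foxk2 set and Rheb and Eif4ebp1 lower, and each axis starts at 0.

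The 2 kinds of control also differed from each other, within a set, for several components. In the Foxk1 set the scrambled shRNA controls had 255 ± 11.6 RPKM of Eif4ebp1 and the empty vector controls 153 ± 3.89 RPKM (SD, n = 3 each), a difference of 0.73 (limma adjusted p = 3.52e-10), larger than the 0.28 fall in the knockdown. Deptor was lower in the scrambled controls by 0.46 (13.3 ± 0.278 against 18.5 ± 1.02 RPKM; log2 difference -0.46, limma adjusted p = 1.74e-06), Rictor by 0.26 (log2 difference -0.26, adjusted p = 0.00483) and Mtor by 0.13 (log2 difference -0.13, adjusted p = 0.00924), and Tsc2 was higher by 0.15 (adjusted p = 0.0035). That makes 5 of 9 components called, against 44.8% of all genes: 2 were higher in the scrambled controls, where 28% of genes were, and 3 lower, where 16.8% were. Ranges were apart for 7 of 9, and for 49.4% of all genes. Of these, the Tsc2 call was lost under median-ratio scaling (adjusted p = 0.202), quantile normalization (adjusted p = 0.0665) and removal of the trend on length and GC content (adjusted p = 0.468). The Mtor call was lost when only these groups were fitted (adjusted p = 0.0813) or without knockdown control replicate 3 (adjusted p = 0.0515). Other components gained a call between these controls: Rptor under median-ratio scaling, quantile normalization, removal of the length and GC trend (log2 difference -0.24, adjusted p = 6.15e-05) and without knockdown control replicate 1, Rps6kb1 under the same 3 scalings (down to -0.20) and without knockdown control replicate 3, and Rheb under median-ratio scaling (-0.12, adjusted p = 0.0158).

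In the Foxk2 set 4 of 9 components differed between the controls, against 18.9% of all genes: 3 were higher in the scrambled controls, where 10.9% of genes were, and 1 lower, where 8.05% were. Ranges were apart for 7 of 9, and for 60.2% of all genes. Deptor was 22.9 ± 0.338 RPKM in the scrambled controls and 17.9 ± 1.17 RPKM in the empty vector controls (SD, n = 2 each; log2 difference 0.35, limma adjusted p = 0.00077). Mtor and Rheb were higher in the scrambled controls by 0.17 and 0.16 (adjusted p = 0.0169 and 0.0191), and Eif4ebp1 was lower (log2 difference -0.27, adjusted p = 0.00063). These 4 components also changed in opposite directions in the Foxk2 overexpression and knockdown, as did Tsc2. Side by side, Deptor was 17.9 RPKM in the empty vector controls, 23.7 RPKM in the overexpression, 22.9 RPKM in the scrambled controls and 16.9 RPKM in the knockdown. For Eif4ebp1 the 4 means were 133, 109, 110 and 123 RPKM in the same order, for Mtor 11.2, 12.4, 12.6 and 11.4 RPKM, and for Rheb 18.2, 20.1, 20.5 and 18.5 RPKM. So for these components the mean of the overexpression libraries lay nearer the scrambled controls than their own. The mean of the knockdown libraries lay nearer the empty vector controls than their own, though for Eif4ebp1 it was about midway and the ranges of these 2 groups did not overlap. The control difference uses the control libraries of both effects, so the 3 values are not independent, and the source of the control difference was not tested. When only the groups compared were fitted, Eif4ebp1 alone kept its call among the 4; the adjusted p of Deptor, Mtor and Rheb was then 0.0644, 0.0844 and 0.133. The Mtor difference was also lost without either scrambled control (adjusted p = 0.0575 and 0.117) or without empty vector control replicate 1 (0.139), and the Rheb difference without replicate 2 of either control group (0.195 and 0.162). Tsc2, in contrast, was 15.6 RPKM in the empty vector and 14.8 RPKM in the scrambled controls, 13.5 RPKM in the overexpression and 17.5 RPKM in the knockdown, outside both control groups in each case.

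**Figure D3:**
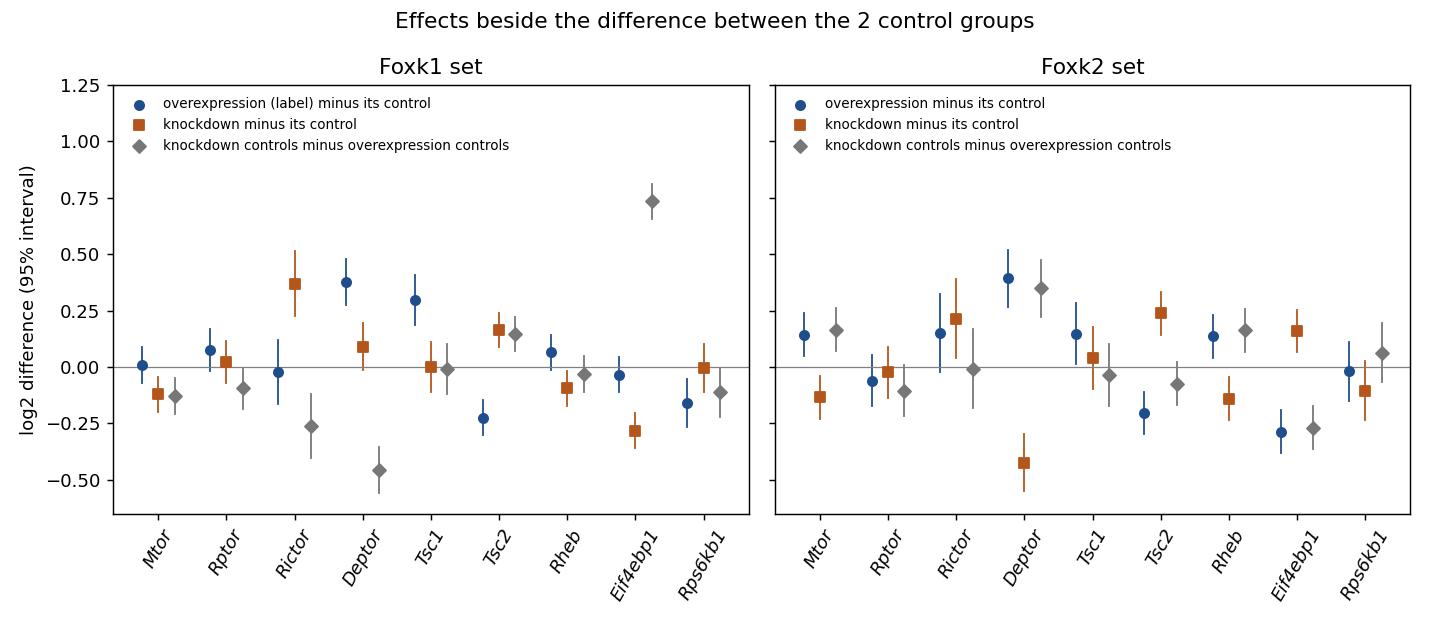
Log2 difference with 95% limma interval for each component: overexpression minus its control (circles), knockdown minus its control (squares) and scrambled shRNA controls minus empty vector controls (diamonds), in the Foxk1 set (left) and the Foxk2 set (right). The diamond of Eif4ebp1 in the Foxk1 set, at 0.73, is the farthest from 0, and the Foxk2 diamonds of Mtor, Deptor, Rheb and Eif4ebp1 lie on the side of the circles. So do those of Tsc2 and Rptor, whose control differences did not pass the test. Circles and diamonds of a set share the empty vector controls.

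The changes of the components in the 2 sets were compared directly. For the overexpressions this compares labels, since the measured Foxk1 RPKM was lower in the libraries labelled Foxk1 overexpression. In the overexpressions 1 of 9 components differed (Eif4ebp1, higher for the Foxk1 label), against 25.1% of all genes (11.6% higher, 13.5% lower). In the knockdowns 2 of 9 differed (Deptor higher for Foxk1, Eif4ebp1 lower), against 14.3% (6.68% higher, 7.63% lower). For Tsc2 the difference between the sets (Foxk1 minus Foxk2) was -0.02 in the overexpressions (interval -0.14 to 0.10) and -0.07 in the knockdowns (interval -0.19 to 0.05). For Deptor in the overexpressions it was -0.02 (interval -0.18 to 0.15). For Rictor in the knockdowns it was 0.16 (interval -0.07 to 0.38), so the rise called in the Foxk1 knockdown was not shown to differ from the uncalled difference in the Foxk2 knockdown. The number of libraries differs between the sets, and these comparisons carry the difference between sets with them.

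Around these components, 68 other genes of the pathway were listed by role, and 63 passed the filter on low values. In the libraries labelled Foxk1 overexpression 25 rose, 14 fell and 24 did not pass, so 61.9% were called, against 47.8% of all genes. Under Foxk1 knockdown 10 rose, 14 fell and 39 did not pass (38.1%, against 35.9% of all genes), in the Foxk2 overexpression 22 rose, 19 fell and 22 did not pass (65.1%, against 45%), and in the Foxk2 knockdown 15 rose, 14 fell and 34 did not pass (46.0%, against 33.7%). The median log2 fold changes were 0.07, -0.02, 0.06 and -0.03. Among the 8 other subunits and assembly factors of the mTOR complexes, 3, 2, 5 and 1 were called in these 4 comparisons, against 47.8%, 35.9%, 45% and 33.7% of all genes. The 2 kinds of control differed for many of the 63 genes as well. In the Foxk1 set 23 were higher and 14 lower in the scrambled than in the empty vector controls (58.7%, against 44.8% of all genes). In the Foxk2 set 8 were higher and 7 lower (23.8%, against 18.9%).

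The largest rise among the 63 genes tested was in a stress sensor. Ddit4 (REDD1), a stress-induced inhibitor of mTORC1, was 99.6, 111 and 112 RPKM in the libraries labelled Foxk1 overexpression against 19.8, 23.6 and 31.4 RPKM, and it rose by 2.11 (SE 0.123, adjusted p = 1.63e-09). It was 50.7 and 54.2 RPKM in the Foxk2 overexpression against 17.0 and 19.5 RPKM, and it rose by 1.5 (SE 0.151, adjusted p = 8.51e-07). It fell in the Foxk1 knockdown, from 24.6 ± 0.757 to 13.2 ± 1.44 RPKM (SD, n = 3 each; log2 fold change -0.87, limma adjusted p = 4.58e-05), and in the Foxk2 knockdown its difference of 0.34 did not pass the test. Sesn2, a leucine sensor that restrains mTORC1, had log2 fold changes of 0.88, -0.41, 0.07 and -0.07 in the 4 comparisons, of which the first 2 passed. The last 2 became 0.28 (adjusted p = 0.000789) and -0.22 (adjusted p = 0.007) after removal of the length and GC trend, and passed. Sesn3, its relative, had -0.89, 0.55, -0.32 and 0.62, and all 4 passed. Within the list of sensors 6, 6, 4 and 4 of 8 tested genes were called, against 47.8%, 35.9%, 45% and 33.7% of all genes. In the Foxk1 set the scrambled and empty vector controls had means of 15.5 and 8.15 RPKM for Sesn2 and 17.7 and 9.16 RPKM for Sesn3. For Ddit4 these means were 24.6 and 25.0 RPKM. Sesn2 in the libraries labelled Foxk1 overexpression had a mean of 15.4 RPKM, near that of the scrambled controls. The source of these control differences was not tested.

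Among the effectors, Pdcd4, an inhibitor of translation initiation that S6 kinase marks for degradation, had the largest falls. It was 14.7, 15.7 and 15.8 RPKM in the libraries labelled Foxk1 overexpression against 40.0, 44.5 and 48.1 RPKM (log2 fold change -1.49, adjusted p = 5.99e-12). It was 18.7 and 19.7 RPKM in the Foxk2 overexpression against 44.2 and 47.5 RPKM (log2 fold change -1.23, adjusted p = 6.52e-10), and it rose by 0.45 and 0.54 in the Foxk1 and Foxk2 knockdowns. Lpin1, a phosphatidate phosphatase whose nuclear entry mTORC1 controls, rose in both overexpressions (0.27 and 0.46) and fell in both knockdowns (-0.60 and -0.37). Eef2k, a kinase that slows translation elongation, had log2 fold changes of -0.23, 0.18, -0.56 and 0.37, all called. Sgk1, a kinase downstream of mTORC2, rose in the knockdowns (0.70 and 0.36), and its differences of -0.17 and 0.24 in the overexpressions did not pass. In the Foxk1 set the scrambled and empty vector controls had means of 74.6 and 44.2 RPKM for Pdcd4 and 59.2 and 95.3 RPKM for Lpin1. The same 2 means were 5.20 and 5.70 RPKM for Eef2k and 6.16 and 8.62 RPKM for Sgk1. In the Foxk2 set they were 43.1 and 45.9 RPKM for Pdcd4 and 142 and 136 RPKM for Lpin1. The Eef2k call in the Foxk1 knockdown was lost without control replicate 2, knockdown replicate 1 or knockdown replicate 2 (adjusted p up to 0.101) and under 5 other alternatives (adjusted p from 0.0595 with median-ratio scaling to 0.167 after removal of the trend on length and GC content). The Sgk1 call in the Foxk2 knockdown was lost without any 1 of its 4 libraries (adjusted p up to 0.0897), while its difference in the Foxk2 overexpression passed with the replicate block (adjusted p = 0.0308), median-ratio scaling (0.0431), voom on whole reads (0.00962), removal of the length and GC trend (0.0454) and without overexpression replicate 1 (0.0277).

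Of the GATOR and KICSTOR genes, which carry amino acid signals to mTORC1, 7 of 11 were called in the libraries labelled Foxk1 overexpression, 2 in the Foxk1 knockdown and 7 in each of the Foxk2 comparisons, against 47.8%, 35.9%, 45% (overexpression) and 33.7% (knockdown) of all genes. Seh1l, a GATOR2 subunit, rose in both overexpressions (0.65 and 0.60) and fell in both knockdowns (-0.36 and -0.21). Kptn, a KICSTOR subunit, rose in the overexpressions (0.35 and 0.27) and fell in the Foxk2 knockdown (-0.42), with a difference of 0.02 in the Foxk1 knockdown that turned to -0.02 under median-ratio scaling. Tbc1d7, the third subunit of the Tsc complex, had 0.25 and 0.35 in the overexpressions and -0.51 in the Foxk2 knockdown, all called, and -0.09 in the Foxk1 knockdown, which did not pass. The 0.25 was lost without any 1 of 4 of its 6 libraries (adjusted p up to 0.133), without the filter (0.0566) and when only the groups compared (0.104) or those of 1 factor (0.07) were fitted. The 0.35 was lost without Foxk2 overexpression control replicate 1 or overexpression replicate 2 (adjusted p up to 0.129), when only the groups compared were fitted (0.0618) and after removal of the length and GC trend (0.0669). Akt1 and Akt2, kinases of insulin signalling singled out after their values were seen, moved in opposite directions. Akt2 rose in the overexpressions (0.34 and 0.39) and fell in the knockdowns (-0.47 and -0.41), while Akt1 fell in the overexpressions (-0.25 and -0.29) and rose in the knockdowns (0.26 and 0.43).

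**Figure D4:**
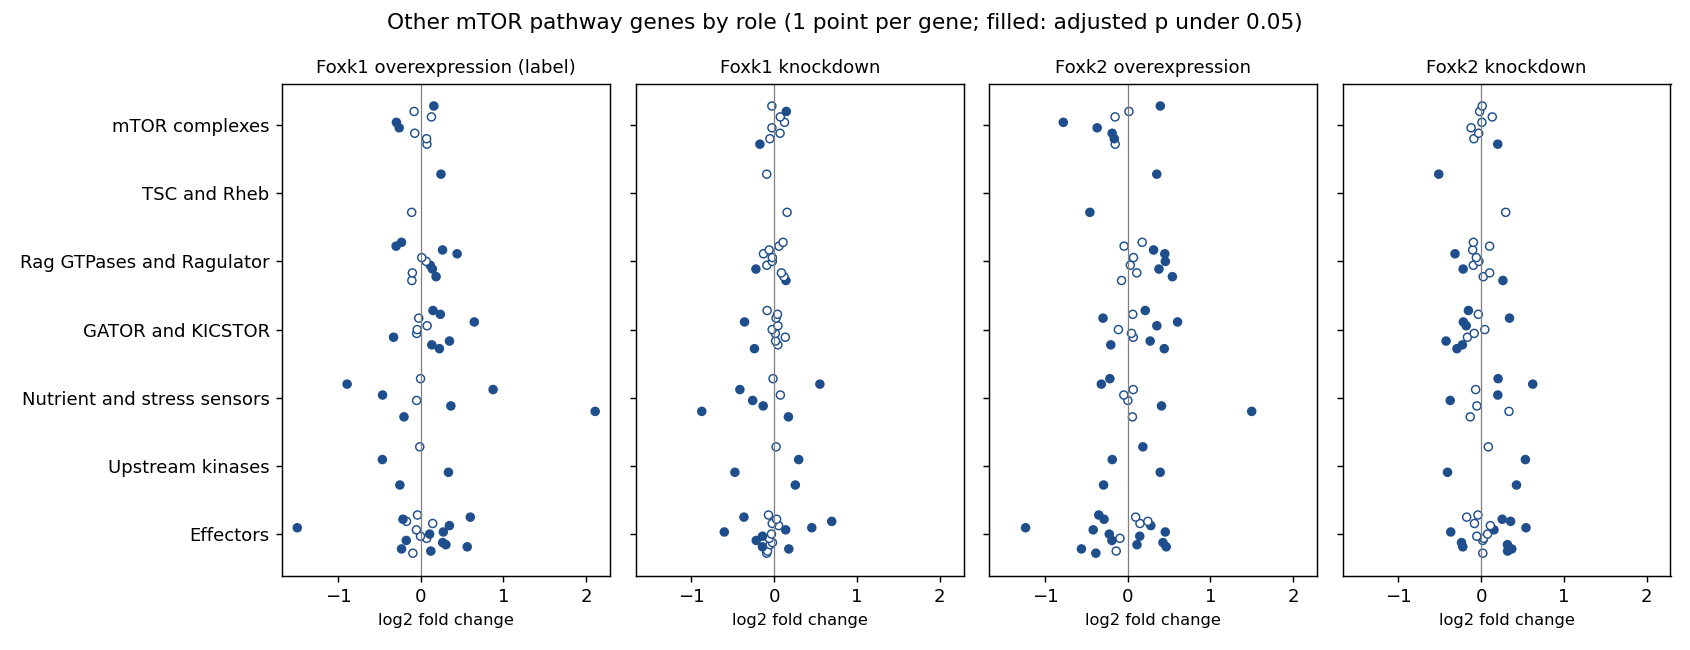
Log2 fold change (manipulated minus own control) of the 63 other pathway genes tested, 1 point a gene, in rows by role and a panel for each comparison, with filled points at an adjusted p under 0.05. The point farthest right is Ddit4 at 2.11 in the libraries labelled Foxk1 overexpression, and the point farthest left is Pdcd4 at -1.49.

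For the 3 components with the largest fold changes, the genes of most similar pattern were found by the Pearson correlation of log2(RPKM + 0.5) over the 20 libraries, centred within each manipulation and its own control, among 9366 genes. For Deptor they were Pnpt1 (r = 0.956), Fermt2 (r = 0.953) and Fam129a (r = 0.951). For Rictor they were Elf1 (r = 0.932), Med14 (r = 0.915) and Myo5a (r = 0.896), and for Tsc1 Ssh2 (r = 0.910), Atrn (r = 0.901) and Ubr2 (r = 0.896). These correlations describe the same libraries and share each library's depth and composition.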

How the data were processed

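RNA from 20 libraries of 3T3-L1 adipocytes was sequenced, and the authors deposited 1 matrix of RPKM values for 48440 genes. Per the submitters' processing notes, HISAT2 2.1.0, Picard 1.141, featureCounts of Subread 1.5.1 and edgeR were used with build mm10. Groups came from the labels. The members and the pathway and marker lists were chosen with earlier results of these data known. A filter kept the 15981 genes that reached 0.5 RPKM in 2 libraries, and these were fitted with limma 3.58.1 (R 4.3.3) on log2(RPKM + 0.5), with a mean per group over all 20 libraries, a variance trend and Benjamini-Hochberg adjustment (12 residual degrees of freedom). The test was also run on simulated data with few changed genes and the same spread in all groups. These data differ in both, so that run says little of the test here, and its outcome is not given. Ratios between members were compared by exact permutation tests, two-sided. Named beside the members were Foxk1, Foxk2 and, per comparison, the 2 largest called rises and 2 largest called falls of the pathway list with a mean of 2 RPKM or more, and for the 3 members of largest change the 3 genes most like them. Low RPKM values were whole multiples of 1 read over exon length (GENCODE M21), so reads were recovered, with 100% of values whole within 0.1 where gene versions matched. Depth was 16739763 to 36157008 assigned reads. IDs of Rictor, Deptor and Tsc2 are older versions than those in M21, whose coordinates are given. No 2 replicates differed by as little as sampling noise. Their squared difference relative to that noise (chi-square per gene) was 47.3 in the Foxk2 overexpression and 29.3 in the Foxk2 knockdown. It was 2.64 to 10.1 in the other groups. The fit shares 1 estimate of spread per gene over all groups, so p-values for the Foxk2 manipulations rest partly on groups with closer replicates. Alternatives were another pseudocount, filter, scaling, fit or set of samples, voom on the recovered reads, removal of a length and GC trend, a replicate block and each library left out.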

Additional observations from a re-analysis of the deposited data

Results flagged for a closer look

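The following results differed between the Foxk1 and Foxk2 sets by a test of the difference itself (Foxk1 effect minus Foxk2 effect, limma, adjusted p under 0.05 over all genes tested, with 3 libraries a group against 2). Among the mTOR components, Eif4ebp1 differed in the overexpressions by 0.25 and in the knockdowns by -0.44, and Deptor differed in the knockdowns by 0.52. Of the 63 other pathway genes tested, 30 differed in the overexpressions (13 higher and 17 lower for Foxk1, where 25.1% of all genes differed) and 13 in the knockdowns (6 higher and 7 lower, against 14.3%); the values below are those of the genes named in the report. In the overexpressions, the difference was 0.81 for Sesn2, 0.61 for Ddit4, 0.33 for Eef2k, -0.57 for Sesn3, -0.42 for Sgk1, -0.26 for Pdcd4 and -0.18 for Lpin1. In the knockdowns it was -1.21 for Ddit4, 0.44 for Kptn, 0.42 for Tbc1d7, -0.35 for Sesn2 and -0.24 for Lpin1. The targeted genes differed as well, with 0.38 for Foxk1 and -0.28 for Foxk2 in the overexpressions and -1.53 for Foxk1 and 1.64 for Foxk2 in the knockdowns. The libraries labelled Foxk1 overexpression had a lower measured Foxk1 RPKM than their controls, in which endogenous and ectopic transcript cannot be told apart. The directions of the overexpression differences are therefore those of the labels.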

How the results depend on the processing

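Of 2112 recomputed values of single genes, 1960 kept their direction and side of the threshold, 67 lost a call, 36 gained one and 49 changed sign; no value that changed sign had passed the test as reported, and 1 passed under the alternative (Rptor, Foxk2 overexpression, 0.16 with the length and GC trend removed). Leaving out 1 library at a time left 3 to 6 components called in the Foxk2 overexpression, 2 to 4 in the Foxk2 knockdown and 2 to 3 between the Foxk2 controls, with 1524 to 1980 genes called between those controls and 1328 to 2383 differing between the knockdowns. Fitting only the groups compared gave 3 components called in the Foxk2 overexpression, and 1 component and 1359 genes between the Foxk2 controls. With the length and GC trend removed 2 components differed between the overexpressions. With the replicate number as a block, 4, 4, 5 and 5 components were called in the 4 comparisons (7400, 5450, 6999 and 5104 genes), which changed no call of a component. Over all genes, same-numbered libraries did not deviate together (correlations -0.0858 to 0.0331). That cannot exclude a pairing, and the labels do not say whether the numbers pair the libraries. Scaling moved the share of higher among called genes from 56.9% to 46.8% (median-ratio scaling) or 43.5% (length and GC trend) in the Foxk1 knockdown, from 53.5% to 40.4% (length and GC trend) in the Foxk2 knockdown and from 62.5% to 45.2% (median-ratio), 51.2% (quantile) or 49.5% (length and GC trend) between the Foxk1 controls. Signs turned with the length and GC trend removed for Rictor (Foxk1 overexpression label, 0.0596), Rptor (Foxk1 knockdown, -0.0541; overexpression difference, -0.00119; Foxk2 controls, 0.00482), Deptor (Foxk1 knockdown, -0.0176; overexpression difference, 0.0926), Tsc1 (Foxk2 knockdown, -0.11; knockdown difference, 0.0244; Foxk2 controls, 0.00535), Tsc2 (knockdown difference, 0.0192), Rheb (overexpression difference, 0.0325; knockdown difference, -0.0177) and Rps6kb1 (overexpression difference, 0.0169). They turned under quantile normalization for Rictor (0.0131), Rptor (Foxk1 knockdown, -0.0320), Tsc1 (Foxk2 knockdown, -0.0175), Kptn (Foxk1 knockdown, -0.0531), Rps6kb1 (Foxk2 overexpression, 0.0047) and Mtor (knockdown difference, -0.0196), and under median-ratio scaling for Rptor (-0.0146), Kptn (-0.0171) and Rps6kb1 (0.0015). With 1 library left out the values that changed sign ranged, for the libraries labelled Foxk1 overexpression, from -0.0021 to 0.0284 (Mtor) and -0.10 to 0.0572 (Rictor). For the Foxk1 knockdown they ranged from -0.0435 to 0.0278 (Tsc1), -0.0662 to 0.0318 (Rps6kb1), -0.0193 to 0.0822 (Rptor) and -0.0464 to 0.0650 (Kptn). For the Foxk2 comparisons they ranged from -0.0728 to 0.0338 (Rps6kb1, overexpression) and -0.15 to 0.0133 (Sesn2, knockdown), and for the differences between factors from -0.0826 to 0.0467 (Deptor, overexpression) and -0.0227 to 0.0509 (Mtor, knockdown). Between controls they ranged from -0.0829 to 0.0667 (Rictor, Foxk2 set), -0.0362 to 0.0111 (Tsc1, Foxk1 set) and -0.0711 to 0.00019 (Tsc1, Foxk2 set). The log2 ratio of Rps6kb1 to Rps6kb2 ranged from -0.0962 to 0.11 (Foxk1 knockdown, 0.02 with all libraries) and -0.11 to 0.0573 (Foxk2 knockdown, -0.03 with all libraries). The cause of these changes was not tested.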
